A study of Drosophila melanogaster with 8 samples.

Results

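The insulin receptor to FOXO pathway was followed through 9 genes chosen by name, InR, chico, Lnk, Pi3K92E, Pi3K21B, Pdk1, Akt, foxo and Thor, in head RNA of Drosophila females with and without reproductive diapause. A gene was represented by the probe set to which the array annotation gave that 1 symbol. By this rule 5 of the 9 genes, InR, chico, Pdk1, Akt and foxo, had a probe set, 1 each, among the 18769 probe sets tested. Lnk, Pi3K92E, Pi3K21B and Thor were not analysed here. The 5 genes run from the receptor to the transcription factor, but the lipid kinase step and the translational repressor Thor are not covered.

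Insulin-like peptides bind the receptor InR at the cell surface, and chico, the insulin receptor substrate, couples the active receptor to phosphoinositide 3-kinase. The lipid product of that kinase recruits Pdk1 and Akt to the membrane, Pdk1 phosphorylates Akt, and Akt phosphorylates the transcription factor FOXO, which is then held in the cytoplasm. When insulin signalling is low, FOXO enters the nucleus and activates genes of stress resistance and metabolism, InR among them, and in Drosophila low insulin signalling is known to favour the arrest of egg development. Much of this pathway is regulated by phosphorylation and by location in the cell, which a transcript array does not measure.

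Total RNA of whole heads from 4 samples of diapause and 4 samples of non-diapause females (Canton S, a wild-type strain) was hybridised to 1-colour Affymetrix Drosophila arrays. Both groups had been placed at 12.5 °C with 14 h of light and 10 h of darkness a day within 8 h of leaving the pupal case, were kept there for 12 days, and carried no transgene, mutation or drug treatment named in the labels. They were told apart only after dissection, by whether the ovaries were in diapause, so the groups differ in reproductive state and share day length, temperature and age. The labels do not say whether the 4 samples of a group came from separate cultures, and p-values therefore measure the spread between these samples, which may be technical.

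Values are GCRMA log2 expression values, so that a difference of 1 is a 2-fold difference in signal, and differences are diapause minus non-diapause. Across all probe sets 0 of 18769 passed an adjusted p of 0.05 in limma, and 563 (3.0%) had an unadjusted p under 0.05, of which 170 were higher and 393 lower in diapause. Pairs of arrays correlated at r = 0.976 to 0.998. Defining neuronal (elav), photoreceptor (Arr2) and glial (repo) transcripts were measured well above the floor of 2.16 on all 8 arrays, and the ovary markers vas and osk lay at the floor. Gut protease transcripts averaged 2.40 on the array of non-diapause sample 3 and 11.3 to 13.7 on the 7 other arrays. Diapause sample 3 stood apart in some genes that were chosen after their values were seen and are given with foxo.

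None of the 5 genes differed between diapause and non-diapause heads beyond the spread between arrays. In limma 0 of 5 passed the adjusted threshold, against 0% of all probe sets, and 0 of 5 had an unadjusted p under 0.05, against 3.0% of all probe sets and 6.51% of the 7593 probe sets averaging 6 or more, the range in which all 5 genes lay. In 0 of 5 did the 4 diapause arrays lie apart from the 4 non-diapause arrays, against 2.0% of all probe sets and 4.32% of those averaging 6 or more. Of the 5 differences 4 were positive and 1 was negative. Among the 4, that of foxo was 0.0037 ± 0.17 (SE), and its sign was reversed in 8 of 17 alternative settings. The median of the 5 differences was 0.11, beside 0.00 over the probe sets averaging 6 or more, of which 51.3% were positive. In size the median of the 5 was 0.11 and that of the same background 0.08.

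**Figure D1:**
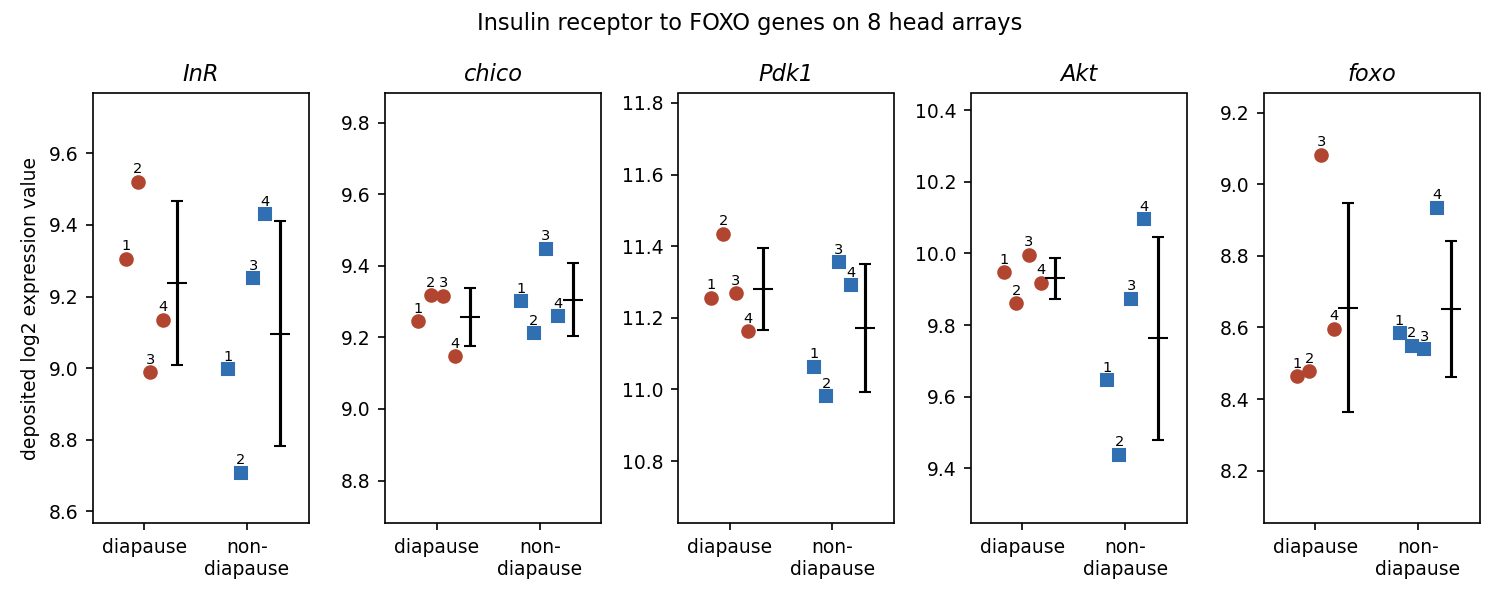
GCRMA log2 expression value of InR, chico, Pdk1, Akt and foxo on each of the 4 diapause arrays and the 4 non-diapause arrays, with the mean and SD of each group. In all 5 genes the points of diapause and non-diapause overlap, and the means differ by -0.05 to 0.17.

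InR, the only insulin receptor of the fly, had log2 values of 9.31, 9.52, 8.99 and 9.14 on diapause arrays 1 to 4, against 8.998, 8.71, 9.25 and 9.43 on non-diapause arrays 1 to 4. The highest value was in diapause 2 and the lowest in non-diapause 2, and the groups overlapped over most of their range. Diapause heads averaged 9.24 ± 0.23 and non-diapause heads 9.10 ± 0.31 (SD, n = 4 each). The difference was 0.14 ± 0.19 (SE), with a 95% interval of -0.32 to 0.60 (limma, adjusted p = 1; exact 2-sided permutation test, p = 0.514). On the linear scale this is a ratio of 1.10 with an interval of 0.803 to 1.51, so a receptor transcript up to 1.51 times as abundant in diapause, or 0.803 times as abundant, lies within it. The difference was 0.01 with non-diapause 2 left out, 0.05 with diapause 2 left out and 0.25 with non-diapause 4 left out. Whole heads were measured, so fewer cells of a type and less transcript per cell cannot be told apart here or in the values that follow.

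Arrays with a high InR value also tended to have a high mean of 4 neuronal markers, a relation short of the adjusted threshold. Of 5 listed neuronal markers 4 were measured. Over the 8 arrays elav averaged 10.31 and nSyb 9.59, while brp averaged 5.35 and para 5.07, below the mean of 6 used for the brighter background. The mean of elav, nSyb, brp and para was 7.52, 8.20, 7.15 and 7.88 on diapause arrays 1 to 4 and 7.43, 6.92, 7.54 and 7.98 on non-diapause arrays 1 to 4. It was highest in diapause 2 and lowest in non-diapause 2, as InR was, and overlapped between the groups. Of the markers, elav, brp and para each had these 2 extremes. The marker nSyb did not, being highest on non-diapause 4 (9.97) and lowest on diapause 1 (9.16). Its difference between the groups was -0.20, against 0.34, 0.35 and 0.39 for elav, brp and para. No marker was set against InR alone in a test. Over the 8 arrays Pearson's r was 0.891 (exact permutation p = 0.00352, adjusted p = 0.0605 over 20 relations) and Spearman's rho 0.905 (exact permutation p = 0.00456, adjusted p = 0.0913). Without diapause 2 and non-diapause 2, the arrays farthest from the median of the markers, r was 0.694. The relation did not pass the adjusted threshold, the 8 arrays share 1 normalization, and the part of neuronal RNA in the level of InR was not tested.

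**Figure D2:**
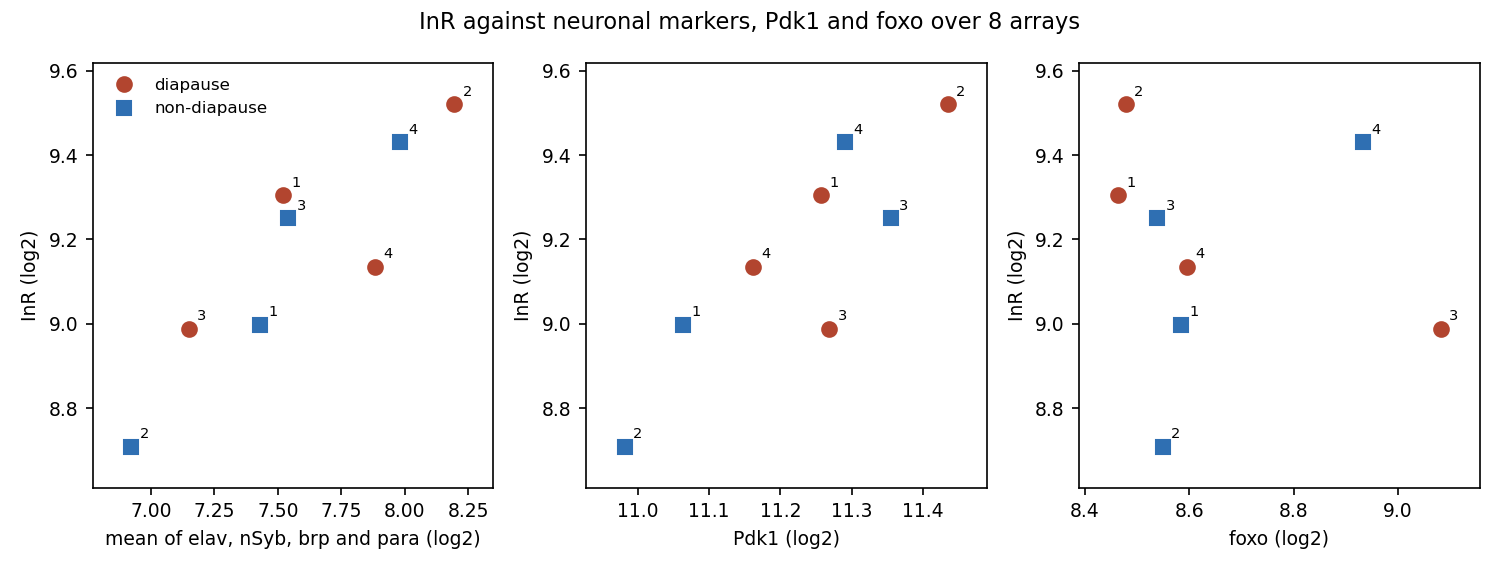
GCRMA log2 value of InR on each of the 8 arrays against the mean log2 value of 4 neuronal markers. Further panels set InR against the log2 values of Pdk1 and of foxo, with diapause and non-diapause arrays marked. InR is highest in diapause 2 and lowest in non-diapause 2. Over the 8 arrays r = 0.891 for the neuronal markers, r = 0.862 for Pdk1 and r = -0.0931 for foxo.

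The transcripts whose level followed InR most closely over the 8 arrays were tyf, which encodes a factor needed for the translation of the clock protein PER (r = 0.980), GluClalpha, a glutamate-gated chloride channel (r = 0.969), and Mkp3, a phosphatase that acts on MAP kinase (r = 0.956). They were the top 3 of 5540 probe sets with 1 symbol, a mean of at least 6 and an SD of at least 0.1, and elav ranked 47 by the same measure. These correlations describe 8 arrays and were picked as the highest, so no p is given.

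The adaptor chico was the steadiest of the 5 genes. Its log2 values were 9.25, 9.32, 9.32 and 9.15 on diapause arrays 1 to 4, against 9.30, 9.21, 9.45 and 9.26 on non-diapause arrays 1 to 4. All 8 values lay within 0.30 of each other, and the arrays of the groups were interleaved. Diapause heads averaged 9.26 ± 0.08 and non-diapause heads 9.30 ± 0.10 (SD, n = 4 each), a difference of -0.05 ± 0.06 (SE). The 95% interval was -0.20 to 0.11, a ratio of 0.870 to 1.08 (limma, adjusted p = 1; exact permutation test, p = 0.543). Leaving out single arrays gave -0.08 (non-diapause 2) to -8.5e-05 (non-diapause 3), with -0.01 without diapause 4. The pooled SD of chico was smaller than that of most transcripts, with 16.8% of probe sets averaging 6 or more varying less.

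Pdk1, the kinase that phosphorylates Akt in its activation loop, had log2 values of 11.26, 11.43, 11.27 and 11.16 on diapause arrays 1 to 4, against 11.06, 10.98, 11.35 and 11.29 on non-diapause arrays 1 to 4. Non-diapause 1 and 2 were below every diapause array, while non-diapause 3 and 4 lay among them. Diapause heads averaged 11.28 ± 0.11 and non-diapause heads 11.17 ± 0.18 (SD, n = 4 each). The difference was 0.11 ± 0.10 (SE), with a 95% interval of -0.14 to 0.36 and a ratio of 0.907 to 1.28 (limma, adjusted p = 1; exact permutation test, p = 0.343). Leaving out single arrays gave 0.04 (non-diapause 2), 0.06 (diapause 2), 0.07 (non-diapause 1) and up to 0.17 (non-diapause 3).

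Akt, the kinase through which the pathway reaches FOXO, had the largest difference of the 5 genes. Its log2 values were 9.95, 9.86, 10.00 and 9.92 on diapause arrays 1 to 4, against 9.65, 9.44, 9.87 and 10.10 on non-diapause arrays 1 to 4. The diapause arrays lay within 0.136 of each other and the non-diapause arrays spread over 0.657, with non-diapause 2 the lowest and non-diapause 4 the highest of all 8. Diapause heads averaged 9.93 ± 0.06 and non-diapause heads 9.76 ± 0.28 (SD, n = 4 each), a difference of 0.17 ± 0.14 (SE) with a 95% interval of -0.17 to 0.51 and a ratio of 0.887 to 1.42. This did not pass (limma, adjusted p = 1; exact permutation test, p = 0.343). The value rested on single arrays. With non-diapause 4 left out the difference was 0.28 (limma, unadjusted p = 0.0455, adjusted p = 1), and with non-diapause 2 left out it was 0.06.

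**Figure D3:**
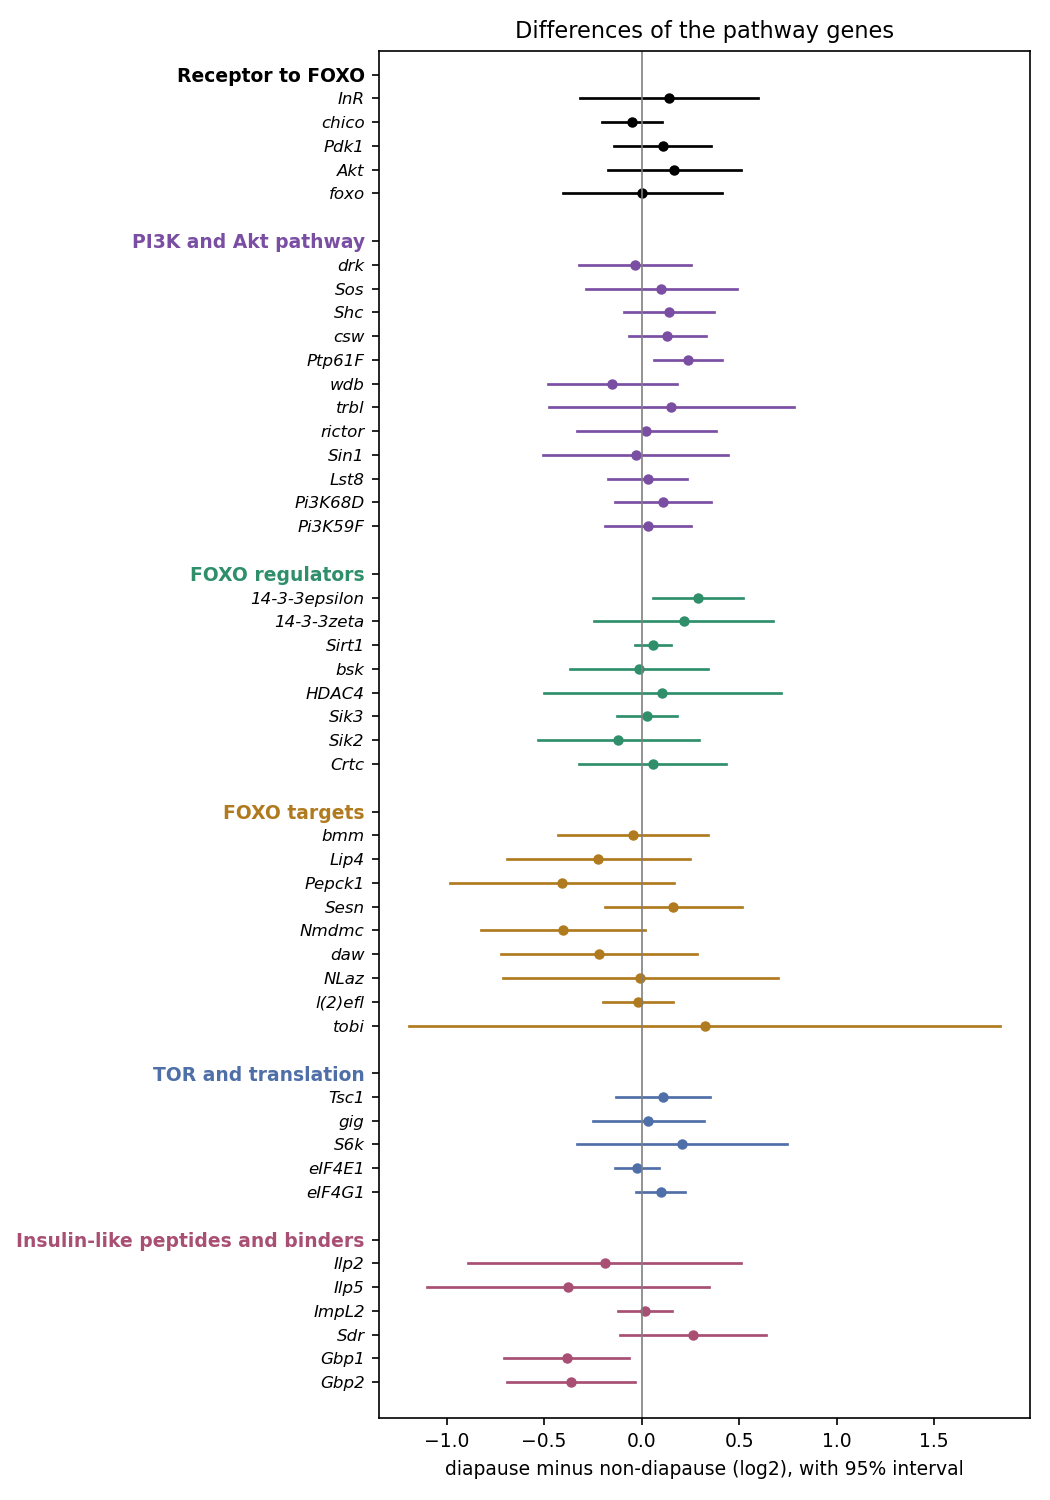
Difference between diapause and non-diapause in GCRMA log2 value for the 5 genes and for every gene of the other pathway lists that averaged 5 or more over the 8 arrays, grouped by list; points are differences and lines 95% intervals from limma. The intervals of InR, chico, Pdk1, Akt and foxo all include 0, from -0.40 at the lowest end to 0.60 at the highest.

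For foxo, which encodes the transcription factor at the end of the pathway, the group means were almost equal. The log2 values were 8.46, 8.48, 9.08 and 8.60 on diapause arrays 1 to 4, against 8.58, 8.55, 8.54 and 8.93 on non-diapause arrays 1 to 4. In each group 3 arrays lay close together and 1 stood above them, diapause 3 in the one and non-diapause 4 in the other. Diapause heads averaged 8.66 ± 0.29 and non-diapause heads 8.65 ± 0.19 (SD, n = 4 each). The difference was 0.0037 ± 0.17 (SE), with a 95% interval of -0.40 to 0.41 and a ratio of 0.755 to 1.33 (limma, adjusted p = 1; exact permutation test, p = 0.971). Without diapause 3 the difference was -0.14 (limma, adjusted p = 1).

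Diapause 3 was the array with the highest foxo value. Of the 45 genes of the pathway and its lists that averaged 5 or more, 8 were highest and 8 were lowest on it. Other arrays held many extremes as well. On diapause 2, 11 genes were highest and 5 lowest, and on non-diapause 3, 10 were highest. On non-diapause 1 and on non-diapause 2, 10 genes each were lowest. The genes given here were chosen after their values were seen. The value of trbl, a pseudokinase that binds Akt, was 7.54 on diapause 3 and 6.33 to 6.79 on the 7 other arrays. Sesn, a sestrin induced by stress, had 10.46 there and 9.80 to 9.92 elsewhere. Gadd45, a growth arrest and DNA damage gene, had 4.28 there and 2.68 on each other array. For bmm, the triglyceride lipase of the fat body, the value was 10.92 there and 10.24 to 10.74 elsewhere. The heat shock gene Hsp26 had 12.22 on the same array and 7.64 to 8.58 on the 7 others. Of the FOXO target list, l(2)efl and NLaz did not stand apart on diapause 3, at 12.86 and 12.00. On the 7 other arrays they had 12.63 to 12.95 and 11.38 to 12.43. Among the genes lowest there, rictor, a subunit of the TOR complex that phosphorylates Akt, had 8.13 on diapause 3 and 8.25 to 8.67 on the 7 others. Sin1, of the same complex, had 5.91 there and 6.10 to 6.73 elsewhere, and the histone deacetylase HDAC4 had 7.88 there and 8.00 to 8.82 elsewhere. The peptide genes Ilp2 (10.43) and Ilp5 (9.83) were lowest on diapause 3 as well. These are values of 1 sample, and their part in the level of foxo was not tested.

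The 3 transcripts most like foxo over the 8 arrays were chk, a monocarboxylate transporter (r = 0.965), Bdbt, a partner of the clock kinase Doubletime (r = 0.961), and Ubr1, a ubiquitin ligase (r = 0.952), of the same 5540 candidates. The neuronal marker elav ranked 3317 by that measure. InR and foxo, where the transcription factor is known to act on the receptor gene, had r = -0.0931 and rho = -0.405 over the 8 arrays (exact permutation p = 0.812 and 0.327, adjusted p = 0.954 and 0.770 over 20 relations). Without non-diapause 2 and diapause 2, the arrays farthest from the median of InR, r was -0.137. With group means removed, r over the 8 arrays was -0.0997. The sign of the relation was negative over the 4 diapause arrays and positive over the 4 non-diapause arrays. So few arrays are too few for a coefficient to be given or to say that the groups differ.

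Within the pathway InR and Pdk1 had the closest relation of the 10 pairs of genes. Pearson's r was 0.862 (exact permutation p = 0.00605, adjusted p = 0.0605) and rho 0.762 (exact permutation p = 0.0368, adjusted p = 0.288) over the 8 arrays. It was 0.583 without non-diapause 2 and diapause 2. InR and Akt had r = 0.716 and rho = 0.357 (exact permutation p = 0.0444 and 0.389, adjusted p = 0.222 and 0.770), and r = 0.597 without the same 2 arrays. For Pdk1 and Akt r was 0.726 and rho 0.405 (exact permutation p = 0.0405 and 0.327, adjusted p = 0.222 and 0.770), and r was -0.362 without non-diapause 2 and non-diapause 1, so that relation rested on those arrays. Both relations with Akt were negative over the 4 diapause arrays, where Akt spanned only 0.136, and positive over the 4 non-diapause arrays. With group means removed, r over the 8 arrays was 0.686 for InR and Akt and 0.673 for Pdk1 and Akt. A sign over 4 arrays is too uncertain to say that the groups differ. No relation passed the adjusted threshold.

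Non-diapause 2 was the array on which the genes were low together. All 5 lay below their own mean over the 8 arrays there, by 0.26 on average, with InR lowest at -0.46 and Akt at -0.41. On diapause 2, diapause 3, non-diapause 3 and non-diapause 4, 4 of the 5 genes lay above their means. On diapause 3, InR was the gene below its mean (-0.18) while foxo was above its own by 0.43, and on non-diapause 4 both were above, by 0.26 and 0.28.

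**Figure D4:**
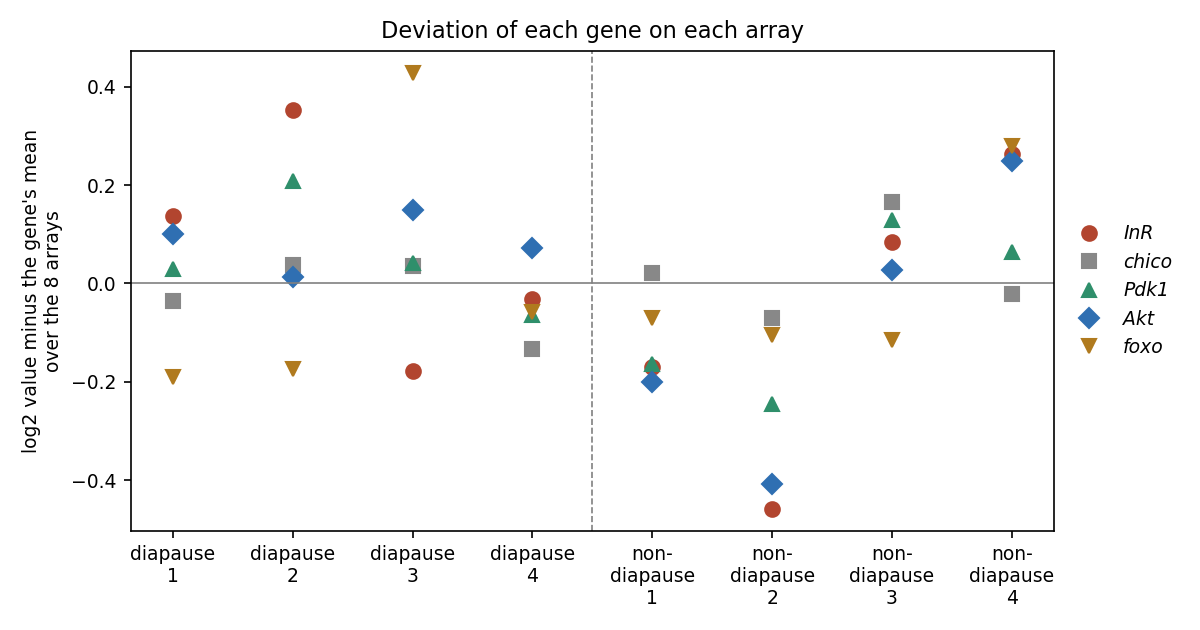
Deviation of the log2 value of InR, chico, Pdk1, Akt and foxo from the mean of each gene over the 8 arrays, by array, with diapause arrays on the left and non-diapause arrays on the right. On non-diapause 2 all 5 genes lie below 0, and foxo is highest on diapause 3, at 0.43.

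Among other genes acting on the receptor, phosphoinositide 3-kinase and Akt, 14 of 21 listed had a probe set and 12 of these had a mean of at least 5. Of the 14, 1 had an unadjusted p under 0.05, higher in diapause, and 0 passed the adjusted threshold. In that direction the share of all probe sets, many of them at the floor, was 0.906%. Of the probe sets averaging 6 or more, 6.51% had such a p in either direction. The gene was Ptp61F, a tyrosine phosphatase related to mammalian PTP1B. Its log2 values were 8.51, 8.67, 8.80 and 8.60 on diapause arrays 1 to 4. On non-diapause arrays 1 to 4 they were 8.50, 8.31, 8.37 and 8.46. Every diapause array lay above every non-diapause array by a narrow margin. The groups lay apart, in either direction, in 2.0% of all probe sets and 4.32% of those averaging 6 or more.

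The difference of Ptp61F was 0.24 ± 0.07 (SE), a ratio of 1.18 (limma, adjusted p = 1; exact permutation p = 0.0286, the smallest that 4 against 4 arrays allow). In limma the unadjusted p was 0.0158, and it lay over 0.05 with limma-trend and a robust prior and without diapause 3 and non-diapause 3 together (0.17). A dimmer probe set of the same gene gave 0.17 ± 0.13 (SE). Next in the list came csw, the SHP2-type phosphatase, at 0.13 ± 0.08 (SE) with overlapping groups. The 12 brighter genes had 9 positive and 3 negative differences with a median of 0.07. Of the glial markers 3 of 3 were positive, with means of 12.11 to 12.31 on diapause arrays and 11.95 to 12.26 on non-diapause arrays, and Gs2 had an unadjusted p under 0.05. Of the muscle markers 4 of 4 measured were positive, with means of 11.06 to 11.28 on diapause arrays and 10.70 to 11.09 on non-diapause arrays, and Prm had an unadjusted p under 0.05. The share higher at such a p was 0.906% of all probe sets. In either direction it was 6.51% of those averaging 6 or more. The neuronal markers were mixed, with elav, brp and para at 0.34, 0.35 and 0.39 and nSyb at -0.20. The part of these markers in the values of Ptp61F and of 14-3-3epsilon, which follows, was not tested.

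Of 9 genes known to act on FOXO 8 were measured, 1 with an unadjusted p under 0.05, higher in diapause, and 0 past the adjusted threshold. The share higher at such a p was 0.906% of all probe sets. In either direction it was 6.51% of those averaging 6 or more. The gene was 14-3-3epsilon, one of the proteins that bind phosphorylated FOXO. The log2 values were 13.23, 13.13, 13.29 and 13.05 on diapause arrays 1 to 4 and 12.94, 12.77, 12.74 and 13.10 on non-diapause arrays 1 to 4. Only diapause 4 lay below a non-diapause array, non-diapause 4. The difference was 0.29 ± 0.10 (SE), a ratio of 1.22 (limma, adjusted p = 1; exact permutation p = 0.0571). Its unadjusted p was over 0.05 without diapause 1 (0.27), diapause 3 (0.25), non-diapause 2 (0.25) or non-diapause 3 (0.24), the difference in brackets. The deacetylase Sirt1 differed by 0.06 ± 0.04 (SE), and the 8 genes had 6 positive and 2 negative differences with a median of 0.06.

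Of 12 genes described as targets of FOXO 10 were measured and 9 had a mean of at least 5. Of these, 2 differences were positive and 7 negative, with a median of -0.04 over the 9. The list was not divided by whether FOXO raises or lowers a gene, so these signs give no direction of FOXO activity. In limma 0 of the 10 had an unadjusted p under 0.05, beside 3.0% of all probe sets and 6.51% of those averaging 6 or more. None passed the adjusted threshold. Nmdmc, a mitochondrial enzyme of folate metabolism, averaged 12.17 ± 0.22 in diapause and 12.57 ± 0.28 in non-diapause heads (SD, n = 4 each), a difference of -0.40 ± 0.17 (SE) with an interval of -0.82 to 0.02. Pepck1, an enzyme of gluconeogenesis, averaged 13.73 ± 0.45 in diapause and 14.14 ± 0.19 in non-diapause heads, a difference of -0.41 ± 0.24 (SE). Both overlapped between the groups. With single arrays left out the difference of Nmdmc was -0.54 (non-diapause 2) to -0.30 (diapause 2), with an unadjusted p under 0.05 without non-diapause 2 or diapause 3 and over it without each other array. That of Pepck1 was -0.60 (diapause 3) to -0.28 (diapause 1), with an unadjusted p under 0.05 without diapause 3 and over it without each other array. The fat body markers were lower in diapause as well, with values given with Gbp1 and Gbp2, and their part in the values of the FOXO targets was not tested.

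In the TOR and translation genes, which respond to insulin signalling through Akt and Tsc1, 6 of 9 were measured and 5 of these had a mean of at least 5. In limma 0 had an unadjusted p under 0.05, beside 3.0% of all probe sets and 6.51% of those averaging 6 or more. None passed the adjusted threshold. The translation factor eIF4G1 differed by 0.10 ± 0.05 (SE) and Tsc1, which restrains TOR, by 0.11 ± 0.10 (SE). The translation factor eIF4E1, to which Thor binds, differed by -0.02.

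Of the secreted ligands and binders 8 of 12 were measured and 6 of these had a mean of at least 5. In limma 2 of the 8 were lower in diapause at an unadjusted p under 0.05, and 0 passed the adjusted threshold. The share lower at such a p was 2.09% of all probe sets. In either direction it was 6.51% of those averaging 6 or more. The 2 genes were Gbp1 and Gbp2, growth-blocking peptides that the fat body releases and that act on the insulin-producing cells. They are not insulin-like peptides themselves. Gbp2 had log2 values of 12.88, 12.34, 12.91 and 12.59 on diapause arrays 1 to 4. On non-diapause arrays 1 to 4 it had 13.15, 13.04, 12.96 and 13.03, with no overlap. No overlap in either direction was found in 2.0% of all probe sets and 4.32% of those averaging 6 or more. Its difference was -0.36 ± 0.14 (SE; limma, adjusted p = 1; exact permutation p = 0.0286), and that of Gbp1 was -0.38 ± 0.13 (SE) with overlapping groups (limma, adjusted p = 1; exact permutation p = 0.0857). The unadjusted p of Gbp2 was over 0.05 without diapause 4 or any 1 of the 4 non-diapause arrays (-0.39 to -0.33), and that of Gbp1 without diapause 2, 3 or 4 or non-diapause 1 or 3 (-0.38 to -0.31).

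The fat body markers Yp1, Yp2, Lsp2 and apolpp averaged 15.05 to 15.13 on the diapause arrays. On the non-diapause arrays they averaged 15.22 to 15.38, so that the means did not overlap. Taken singly, Yp1, Yp2 and Lsp2 did not overlap between the groups, and apolpp did. The same shares without overlap, 2.0% of all probe sets and 4.32% of those averaging 6 or more, stand beside this. Of the 5 listed fat body markers 4 were lower at an unadjusted p under 0.05 and Fbp1 was at the floor. The share lower at such a p was 2.09% of all probe sets. In either direction it was 6.51% of those averaging 6 or more. Yp1 and Yp2 encode yolk proteins, whose synthesis the paper describes as inhibited in diapause, so they do not measure fat body RNA alone. Their part in the values of Gbp1 and Gbp2 was not tested. The peptides made by the insulin-producing cells of the brain overlapped between the groups, Ilp2 averaging 10.96 ± 0.49 in diapause heads and 11.14 ± 0.33 in non-diapause heads, and Ilp5 10.33 ± 0.48 in diapause heads and 10.70 ± 0.38 in non-diapause heads (SD, n = 4 each). The differences were -0.19 ± 0.29 and -0.38 ± 0.30 (SE). Ilp3 and Ilp6 were not analysed here.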

How the data were processed

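Each array has 1 deposited log2 value per probe set, which the authors made with GCRMA according to the submitters' processing notes. This method estimates background from the sequence of each probe, brings the arrays to a common distribution and combines the probes of a set. Its version was not given in the sources used here. No normalization was added here to the deposited log2 values. Of 18952 probe sets, 183 controls were left out. Values at the floor have no order, and 6410 tested probe sets lay there on all 8 arrays. The number of arrays limits precision, the median half-width of a 95% interval being 0.29 for probe sets averaging 6 or more.

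Groups and sample numbers came from the sample titles. Where a gene had several probe sets, the one with the highest mean was used. Diapause and non-diapause were set against each other in limma (lmFit and eBayes, 2-sided, limma 3.58.1, R 4.3.3), which the methods of the study name too. Benjamini-Hochberg adjustment ran here over all 18769 probe sets. The study called its diapause genes at p under 0.01 in limma, so its count and the adjusted counts given here are at unlike thresholds. Exact permutation tests used the 70 assignments of arrays to groups, or all 40320 pairings for correlations. The fit in limma was also tested on simulated data with known changes.

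The 9 genes and the other lists were chosen with earlier results of these data known. All 9 were to be named. From each other list came the genes with an unadjusted p under 0.05 or, where fewer than 2 had one, the 2 with the smallest p and a mean of at least 5. Ilp2, Ilp3, Ilp5 and Ilp6, and the 3 genes most like InR, foxo and Thor, were added. The values of eIF4E1, trbl, Sesn, Gadd45, bmm, Hsp26, l(2)efl, NLaz, rictor, Sin1 and HDAC4, and relations other than InR with foxo, were chosen after the data were seen. Of the marker lists used to check the tissue, those of glia, eye and muscle averaged 12.1 to 12.3, 14.3 to 14.6 and 11.1 to 11.3 on diapause arrays, and 11.9 to 12.3, 14.2 to 14.7 and 10.7 to 11.1 on non-diapause arrays. Alternatives were a replicate block, array weights, a robust prior in limma-trend, quantile normalization applied once more, arrays centred on their medians, filters on dim probe sets, averages over the probe sets of a gene, and arrays left out.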

Additional observations from a re-analysis of the deposited data

Results flagged for a closer look

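In groups of 4 arrays, a sample was picked out by its gap to the nearest other sample. The gap had to take up more of the range of its group than the 95% critical value of Dixon allows. Chance passes that limit in about 1 of 20 groups, and 9 of 50 groups passed it. The 50 groups include genes picked for their values on diapause 3, trbl and rictor among them, so 9 of 50 cannot be set against 1 of 20. Of the 5 pathway genes foxo was flagged, with 8.93 on non-diapause 4 where the 3 arrays beside it had 8.54 to 8.58. Among the FOXO targets Nmdmc had 12.16 on non-diapause 2 against 12.66 to 12.75 on the others. On non-diapause 4, trbl had 6.48 against 6.71 to 6.75. On non-diapause 1, rictor had 8.25 against 8.56 to 8.58.

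On diapause 3, Sesn had 10.46 against 9.85 to 9.92 on the other diapause arrays, Gadd45 had 4.28 against 2.68, Hsp26 had 12.22 against 7.64 to 8.16, and rictor had 8.13 against 8.59 to 8.67. These 4 genes were chosen because of that array, so their flags add nothing to the values already given. Gadd45 on non-diapause 2, at 2.68132 beside 2.68117 on the others, is a difference at the floor and has no order. No cause was tested for any of these values.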

How the results depend on the processing

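None of the 5 genes passed the adjusted threshold in any of 17 alternatives (smallest adjusted p in limma 0.824 for InR, 0.407 for chico, 0.839 for Pdk1, 0.665 for Akt and 0.836 for foxo), and InR, Pdk1 and Akt stayed positive and chico negative in all 17. Their median difference was 0.01 to 0.17. The difference of foxo was -0.032 after a second quantile normalization, -0.058 with centring, -0.13 with array weights, -0.18 without diapause 3 and non-diapause 3, and -0.14 to 0.10 with 1 array left out. With centring the median over all probe sets was -0.06 and the difference of Sirt1 was -0.0040. Without diapause 3 and non-diapause 3 Ilp2 was at 0.13. Deviations of same-numbered arrays correlated at -0.62 to 0.06, and 0 of 4 arrays correlated best with their own number. These correlations give no sign that the numbers pair the samples. They pool all probe sets averaging 6 or more, so they cannot exclude pairing. With the number as a replicate block, 0 members had an unadjusted p under 0.05, and the counts were 0 for the PI3K and Akt list, 0 for the FOXO regulators, 1 for the FOXO targets and 1 for the secreted ligands, as Ptp61F, 14-3-3epsilon and Gbp2 had an unadjusted p over 0.05 and Nmdmc under it. The PI3K and Akt count of 1 was 0 with limma-trend and a robust prior, 0 without diapause 3 and non-diapause 3, and 1 to 2 with 1 array left out (2 without non-diapause 4). The FOXO regulator count of 1 was 0 with array weights, 0 without diapause 3 and non-diapause 3, and 0 to 1 with 1 array left out. The FOXO target count of 0 was 1 with centring, 2 with array weights, 1 with means of at least 6, 1 with means of at least 4, 1 without diapause 3 and non-diapause 3, and 0 to 2 with 1 array left out (2 without diapause 3, 1 without non-diapause 2). The TOR count of 0 was 0 to 2 (2 without non-diapause 4), and that of the members 0 to 1 (Akt, without non-diapause 4). The count of 2 for the secreted ligands was 0 without diapause 4 or non-diapause 1, and 0 to 2 with 1 array left out, with 1 without diapause 2 or non-diapause 2, 3 or 4. It was 3 with array weights and 3 without diapause 3 and non-diapause 3 together. Over all probe sets the adjusted count of 0 was 2 after quantile normalization, 1 with centring, 4 with array weights and 0 to 2 with 1 array left out (2 without non-diapause 2), and the count of 563 at unadjusted p under 0.05 was 214 with limma-trend and a robust prior, 924 after quantile normalization, 1094 with centring and 858 with array weights. The r of InR and foxo was 0.0235 with centring, 0.201 without diapause 3 and non-diapause 3, and -0.369 to 0.184 with 1 array left out. That of InR and Pdk1 was 0.745 to 0.934 with 1 array left out (exact permutation p = 0.0514 without non-diapause 2), and that of InR and the neuronal markers 0.815 to 0.946. The alternatives for these 2 relations were added after seeing the data. The causes of these changes were not tested.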
